A study of Homo sapiens with 3 samples.

Results

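NRF2 is the transcription factor that switches on the antioxidant and detoxification program of animal cells. The 9 genes described here were chosen by name, as the factor itself, its inhibitor and a set of its best-known targets: NFE2L2 (the gene of NRF2), KEAP1, GCLC, GCLM, TXNRD1, SRXN1, NQO1, AKR1C1 and HMOX1. The choice was made with earlier results of these data known. The genes were represented by 11 non-control probes, among 43317 gene names on the array. Of the 9 genes, 8 had a probe well above background on at least 1 array, as did 22620 genes in all, and only NFE2L2 had none.

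Gene expression was measured in HCT116, a human colorectal cancer cell line, on 3 Agilent arrays of 1 colour. The conditions were SMARCA4-KD1 and SMARCA4-KD2, cells in which SMARCA4 was knocked down with small interfering RNAs, and NC, the scrambled negative control, with 1 array for each. SMARCA4, also called BRG1, is the ATPase of the SWI/SNF complex, which moves and evicts nucleosomes. All cells were of the same line, grown in McCoy's 5A medium and transfected with Lipofectamine. Knockdown was transient and no protein was measured on these arrays, so every value is a transcript signal in cells that still made some SMARCA4 transcript. The records name 2 such RNAs and do not say which one went with which array.

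The titles of the records name SMARCA4 but the treatment field names PRMT1, so both genes were looked at first. Where a gene has 1 value per array, the values for the knockdowns stand in the order SMARCA4-KD1, SMARCA4-KD2. Signals are printed before the arrays were scaled by their 75th percentile, and fold changes were taken after it. A ratio of printed signals can therefore differ from the fold given. SMARCA4 had a signal of 3960 and 4129 in the knockdowns against 14026 in NC, 3.75-fold and 3.47-fold lower in the knockdown arrays. PRMT1 read 9801 and 10147 in the knockdowns and 7683 in NC, so it was not lower after knockdown. Between 45.7% and 47.3% of probes were well above background on an array, and the 75th percentile of the signal lay between 223 and 237. Of 6 epithelial markers 5 were well above background on all arrays, all but VIL1, with a summed signal of 368432 to 396689, whereas 4 of 5 fibroblast markers were so on no array, and the summed fibroblast signal was 368 to 493. Of 4 leukocyte markers 3, and of 4 endothelial markers 2, were well above background on all arrays, with summed signals of 157 to 200 and of 70.4 to 120, and their part in the results was not tested. Both knockdown arrays lay on 1 slide with 1 scan and the NC array on another slide with another scan, so slide and condition cannot be told apart. The knockdowns were both compared with the same NC array, so a deviation of that array enters both comparisons alike.

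Under basal conditions KEAP1 holds NRF2 for ubiquitination by a CUL3 ligase, and the factor is degraded as fast as it is made. Oxidants and electrophiles modify cysteines of KEAP1, after which NRF2 accumulates, pairs with a small MAF protein and binds antioxidant response elements in its targets. Those targets make glutathione, reduce oxidized thiols, remove quinones and carbonyls, and degrade heme. Control of NRF2 is thus largely at the protein level, which an array does not read.

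Across the members, HMOX1 and SRXN1 were higher in both knockdowns by at least 1.5-fold, the fold used in the study, AKR1C1 was lower by at least 1.5-fold in both, and GCLC passed that fold in SMARCA4-KD1 only. KEAP1, NQO1, TXNRD1 and GCLM differed from NC by at most 1.22-fold in each knockdown. Members higher in both numbered 2 of 8, where 6.36% of all genes were, and members lower in both numbered 1 of 8, where 8.03% of all genes were. In direction alone, 5 members were above NC in both knockdowns and 3 below, beside 41.1% and 39.3% of all genes. The members' median log2 fold change was 0.17 for each knockdown, beside medians of -0.00 and 0.02 for all genes.

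With 1 array per condition, no comparison of a single knockdown with NC has a replicate check. Both knockdowns against NC in 1 limma fit, which assumes that the lone NC array varies like the knockdown arrays, gave 0 members and 0% of all genes at a Benjamini-Hochberg adjusted p of 0.05. At an unadjusted p under 0.05, limma marked 5 of 8 members (KEAP1, GCLC, SRXN1, AKR1C1 and HMOX1) and 30.7% of all genes. The methods' t-test marked 5 of 8 members and 14.2% of all genes at the same level, and 0 genes after adjustment. Unlike limma, the t-test marked NQO1 and not GCLC. For NQO1 the gap between the knockdown arrays, from which that test takes its spread, was only 0.002 on the log2 scale. By adjusted limma p, HMOX1 and SRXN1 shared the lowest value with many genes of differing unadjusted p, so that value does not rank them. SMARCA4 and, of pathway genes described below, ME1, IDH1, FTL and AKR1B10 had the same value. By the mean change of both knockdowns HMOX1 and SRXN1 ranked 637 and 1313 from the highest. Under 5 other settings limma called the same 3 members, GCLC, SRXN1 and HMOX1, among many genes: 11.7% of all genes with quantile normalization, 15.9% with the normexp background correction, 26.5% with only probes well above background on every array, 14.8% with no floor and 16% with the series-level table. With no filter it called 5 members, these and KEAP1 and GCLM, and 66% of all genes.

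**Figure D1:**
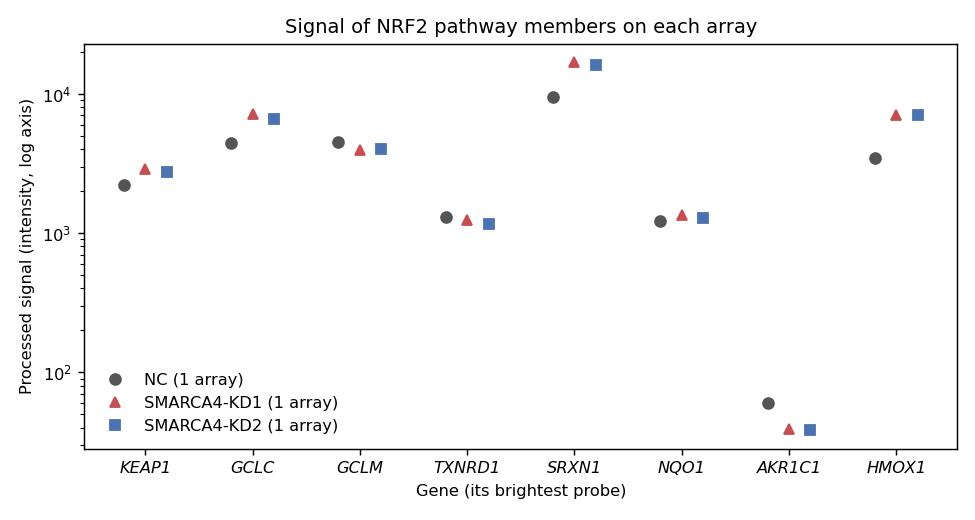
Processed signal (intensity, log axis) of the brightest probe of each measured member on each array, with 1 point per array. HMOX1, SRXN1 and GCLC lie higher on both knockdown arrays than on NC, and AKR1C1, the dimmest, lies lower. Signals are before scaling of the arrays. Heights of different genes are of different probes and are not compared.

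Of the regulators, NFE2L2 could not be followed. Its only probe, in chr2:178095693-178095752 of hg19 on the minus strand, gave 3.57 and 3.37 on the knockdown arrays and 3.87 on the NC array. The lowest signals of any probe well above background were 16.9, 16.2 and 17.7 on the same arrays. All 3 values lay below those limits and no fold was taken, and whether this probe reads the NFE2L2 transcript well was not tested. Its sequence is given because the lack of a value for NFE2L2 rests on it, with no part in capitals.
NFE2L2 probe: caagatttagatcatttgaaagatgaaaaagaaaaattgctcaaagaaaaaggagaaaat

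KEAP1, the substrate adaptor that delivers NRF2 for degradation, read 2861 and 2749 after knockdown, with 2205 in NC. It was 1.22-fold higher in each knockdown, a log2 fold change of 0.29 in both, with an extraction error of 0.20 in each. This error is the one the extraction software gives to each signal, carried to the log2 difference of 2 arrays. By limma the change had an unadjusted p of 0.0281 and an adjusted p of 0.126, with a 95% interval of 0.06 to 0.52 on the log2 scale.

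The KEAP1 probe and the HMOX1 probe were each printed 10 times per array, which shows the technical error within an array directly. The KEAP1 spots left after outliers were removed ranged from 2744 to 2947 in SMARCA4-KD1 (9 spots), from 2713 to 2785 in SMARCA4-KD2 (7 spots) and from 2101 to 2287 in NC (10 spots). Spots of NC and of either knockdown did not overlap, although they are repeats on 1 array and not replicates of a condition. The SD of log2 signal between spots of this probe was 0.01 to 0.04 on an array. That SD does not measure the spread between arrays or slides, so it cannot judge the log2 fold change.

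Glutathione synthesis begins with glutamate-cysteine ligase, made of a catalytic subunit, GCLC, and a modifier subunit, GCLM. GCLC showed a signal of 4401 in NC and of 7177 and 6616 after knockdown, higher on both knockdown arrays. GCLM had a signal of 3974 and 3998 in the knockdowns against 4473 in NC, lower on both. The subunits of this enzyme therefore lay on opposite sides of NC on every knockdown array.

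The log2 difference of GCLC from NC was 0.62 (1.54-fold) for SMARCA4-KD1 and 0.56 (1.47-fold) for SMARCA4-KD2, the second just outside the 1.5-fold limit. It was the member with the largest gap between the knockdowns, 0.07 on the log2 scale, and limma gave it an unadjusted p of 0.00478 and an adjusted p of 0.0941. That of GCLM was -0.25 and -0.19, near the extraction error of 0.20. The 95% interval of limma for GCLM ran from -0.47 to 0.02 on the log2 scale and included 0, with an adjusted p of 0.177. The difference between the subunits was not tested.

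The thiol-reducing members also lay on opposite sides of NC. SRXN1, sulfiredoxin, which restores overoxidized peroxiredoxins, gave 16771 and 16012 on the knockdown arrays and 9421 on the NC array. It was 1.68-fold and 1.66-fold higher in the knockdowns, log2 fold changes of 0.75 and 0.73, and ranked 1313 from the highest of 22620 genes by the mean of both. Limma gave SRXN1 an unadjusted p of 0.00179 and an adjusted p of 0.0939.

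TXNRD1, the cytosolic thioredoxin reductase, read 1248 and 1169 after knockdown, with 1294 in NC, with all 3 arrays close together. Its log2 fold changes were -0.14 and -0.18, within the extraction error of 0.20. The 95% interval of limma for TXNRD1 was -0.42 to 0.11 on the log2 scale, with an adjusted p of 0.307.

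NQO1 and AKR1C1 stand for detoxification. NQO1, a quinone reductase and the target most often used to read NRF2 activity, showed a signal of 1213 in NC and of 1335 and 1286 after knockdown. It was 1.04-fold higher in each knockdown, a log2 fold change of 0.05 in both. The limma interval for NQO1, -0.20 to 0.31 on the log2 scale, leaves a change of up to those sizes undecided, with an adjusted p of 0.691.

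AKR1C1, an aldo-keto reductase that reduces ketosteroids and lipid aldehydes, was the only member lower by over 1.5-fold. The brightest of its 3 probes, in chr10:5019910-5019969 of hg19 on the plus strand, had a signal of 39.1 and 38.3 in the knockdowns against 60.0 in NC. The knockdown arrays lay 1.63-fold and 1.60-fold below NC, log2 fold changes of -0.70 and -0.68, and the extraction error was larger here, 0.26. Limma gave AKR1C1 an unadjusted p of 0.0240 and an adjusted p of 0.119. These signals were dim, only a few times the lowest signal well above background, and with the normexp background correction the log2 fold changes were -0.31 and -0.25, so the gene no longer passed 1.5-fold.

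A second AKR1C1 probe, in chr10:5005636-5005695 on the plus strand, gave 29.3 and 38.6 on the knockdown arrays and 58.5 on the NC array. It was again lowest on the knockdown arrays, 2.12-fold and 1.55-fold below NC. The RefSeq accessions attached to this probe belong to both AKR1C1 and AKR1C2, so it cannot assign the signal to 1 of these near-identical genes. The third probe, in chr10:5011936-5011995, was not well above background on any array, at 4.28 and 4.65 in the knockdowns and 10.0 in NC. The sequence of the shared probe is shown with its first ATG in capitals.
AKR1C1 and AKR1C2 shared probe: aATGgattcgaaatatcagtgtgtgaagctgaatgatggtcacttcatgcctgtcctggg

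HMOX1, heme oxygenase 1, which opens the heme ring to biliverdin, carbon monoxide and iron, showed the largest change of the members. The HMOX1 probe read 7018 and 6988 after knockdown, with 3456 in NC. The knockdown arrays were 1.92-fold and 1.98-fold above NC, log2 fold changes of 0.94 and 0.98 with an extraction error of 0.20. Limma gave HMOX1 an unadjusted p of 0.00103, an adjusted p of 0.0939 and a 95% interval of 0.73 to 1.19 on the log2 scale. It ranked 637 from the highest of 22620 genes by the mean of both knockdowns.

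The HMOX1 spots ranged from 6497 to 7212 in SMARCA4-KD1 (10 spots), from 6884 to 7086 in SMARCA4-KD2 (8 spots) and from 3248 to 3580 in NC (10 spots). The lowest knockdown spot was thus far above the highest NC spot. The probe lies in chr22:35790122-35790181 of hg19 on the plus strand, and it was saturated on no array.

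**Figure D2:**
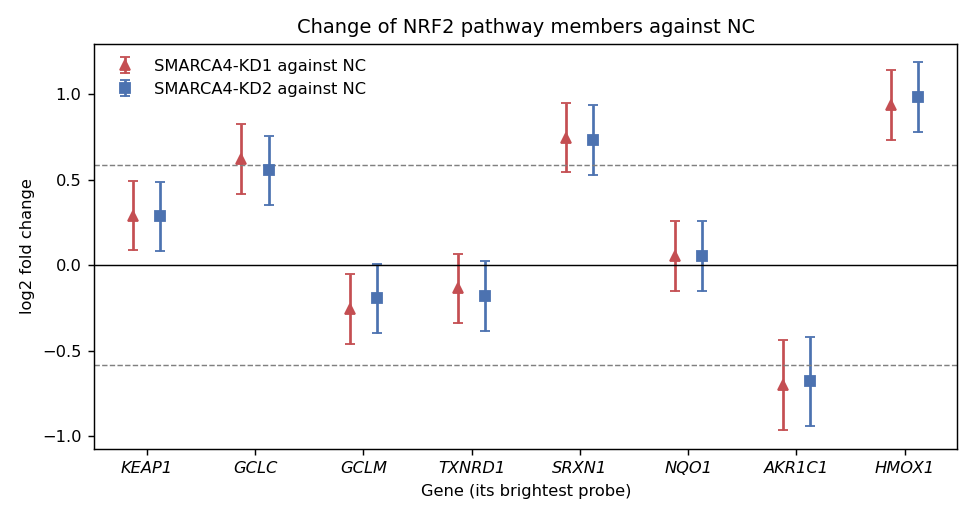
log2 fold change of each measured member in each knockdown against NC. Points are single comparisons of 2 arrays, error bars are the extraction error of that difference and dashed lines mark 1.5-fold. HMOX1 and SRXN1 lie above the upper line in both knockdowns, GCLC lies at it, and AKR1C1 lies below the lower line.

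The knockdown arrays were close to each other for these genes. The log2 difference between them was 0.00 to 0.07 in size over the 8 members, with a median of 0.03. Over all 22620 genes the median size of that difference was 0.13. It was 0.12 over the 19497 genes with signal well above background on every array. These sets were not matched to the members in brightness or in spots per probe. The spread between separate cultures of 1 condition is not known.

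The other probes lay, in hg19 and on the strand given, at chr19:10597262-10597321 for KEAP1 (minus), chr6:53362197-53362256 for GCLC (minus), chr1:94352810-94352869 for GCLM (minus) and chr20:627563-627622 for SRXN1 (minus). Those for NQO1 and TXNRD1 lay at chr16:69744274-69744333 (minus) and chr12:104732949-104733008 (plus). An annotation of exons and untranslated regions in hg19 was not used here. Each of these probes reads 1 stretch of 60 bases, and transcripts that lack it are not counted.

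The antioxidant response element, the site to which NRF2 binds with a small MAF protein, has the core TGACNNNGC. That core was searched on both strands in the RefSeq promoters of GRCh38.p14, from 250 bases before to 50 after each start. Promoters were found for 8 of the 9 members, all but HMOX1, and 4 of their 11 promoters (36.4%) held the core, in GCLM, TXNRD1 and KEAP1. Among all 35116 promoters 13.3% held it. No match lay in these windows for NFE2L2, GCLC, AKR1C1, NQO1 or SRXN1. The matches are shown, on the gene's strand and with the core in capitals, so that the letters can be read beside the values of these 3 genes.
GCLM, chr1:93909436-93909484, minus strand: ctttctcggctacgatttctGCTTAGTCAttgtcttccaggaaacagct
TXNRD1, chr12:104215660-104215708, plus strand: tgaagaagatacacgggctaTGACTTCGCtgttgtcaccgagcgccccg
TXNRD1, other start, chr12:104286910-104286958, plus strand: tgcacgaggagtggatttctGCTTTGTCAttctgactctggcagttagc
KEAP1, chr19:10502797-10502845, minus strand: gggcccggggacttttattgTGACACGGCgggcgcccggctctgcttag
KEAP1, same promoter, chr19:10502774-10502822, minus strand: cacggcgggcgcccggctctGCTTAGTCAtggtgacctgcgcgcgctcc

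Counted from the start, the first base of the core lay at -34 in GCLM, at -99 and -102 in the promoters of TXNRD1, and at -54 and -31 in KEAP1. A further match in TXNRD1 began at -8. None of these overlapped TGANTCA, the site of AP-1, which resembles the core. A match in these letters is a description of the sequence and not a site of binding, and no match says only that the letters were not in this window.

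Other genes of the pathway were taken from a list of 45 by role. A probe named for the gene was found for 44, all but AKR1C2, and 41 were measured, since TXNIP, CBR1 and UGT1A6 were not well above background on any array. Of the 41, SQSTM1, ME1 and FTL (3 genes) exceeded NC by 1.5-fold or more on both knockdown arrays, and ABCC3, IDH1, AKR1B10 and AKR1C3 (4 genes) lay 1.5-fold or more below it. These counts of 41 stand beside 6.36% and 8.03% of all genes, so they are near the background. The same shares apply to the counts by role below, which rest on few genes each. By sign, 20 were above NC in both, 12 were below in both and 9 differed in sign between the knockdowns. As a list they had medians of 0.10 and 0.07 on the log2 scale. Limma called 0 of the 41 at an adjusted p of 0.05 and marked 15 at an unadjusted p under 0.05, and the methods' t-test marked 10, beside 30.7% and 14.2% of all genes.

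**Figure D3:**
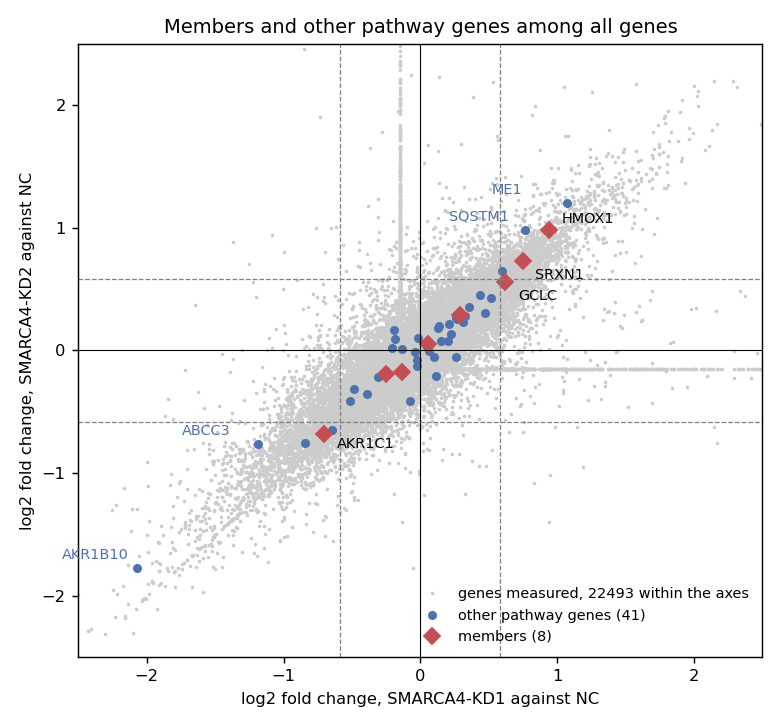
log2 fold change against NC in SMARCA4-KD1 (horizontal) and SMARCA4-KD2 (vertical) for all genes measured (grey), other pathway genes (circles) and members (diamonds), with dashed lines at 1.5-fold. Both axes share the NC array, and 127 genes lie outside the axes. HMOX1 and SRXN1 lie past the dashed lines in the upper right quadrant and AKR1C1 past them in the lower left.

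Among 9 regulators, 1 passed 1.5-fold. SQSTM1, which encodes p62, an autophagy receptor that can displace NRF2 from KEAP1, showed a signal of 7346 in NC and of 13212 and 14839 after knockdown. The log2 fold changes of SQSTM1 were 0.76 and 0.98. The small MAF partners MAFG and MAFF, chosen after their values were seen, had log2 fold changes of 0.51 and 0.43, and of 0.48 and 0.31, short of 1.5-fold. The third small MAF listed, MAFK, had -0.03 and -0.13. BACH1, a repressor that competes with NRF2 at HMOX1 and also chosen after its values were seen, had log2 fold changes of 0.33 and 0.28.

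Of 8 other genes of glutathione metabolism and transport, 1 passed. ABCC3, an exporter of conjugates, had a signal of 326 and 422 in the knockdowns against 701 in NC, 2.28-fold and 1.70-fold lower. Its second probe gave 177 and 196 in the knockdowns and 484 in NC. The log2 fold changes of that probe were -1.53 and -1.33, a larger drop than at the brighter probe. The study itself picked ABCC3 from these arrays, so its place in the count is not independent evidence. SLC7A11, the cystine importer that feeds glutathione synthesis, had log2 fold changes of -0.02 and -0.08 and was chosen after its values were seen. None of the 3 measured thioredoxin genes (TXN, PRDX1 and PRDX6) passed.

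Of 6 genes that supply NADPH, 2 passed, in opposite directions. ME1, cytosolic malic enzyme, gave 1654 and 1743 on the knockdown arrays and 742 on the NC array, 2.10-fold and 2.30-fold higher. IDH1, cytosolic isocitrate dehydrogenase, read 3822 and 3684 after knockdown, with 5650 in NC, 1.57-fold lower in each. The ME1 promoter held the core TGACNNNGC at -137 from the start, where it overlaps TGANTCA, and a further match at 11 that does not. An IDH1 promoter also held the core, at -143, and in the whole list 12 of 48 promoters (25%) did. The first ME1 match is shown for its overlap with TGANTCA.
ME1, chr6:83431160-83431208, minus strand: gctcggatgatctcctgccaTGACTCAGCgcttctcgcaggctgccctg

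Of 6 genes of heme and iron handling, 1 passed. FTL, the light chain of ferritin, which stores the iron that heme oxygenase releases, showed a signal of 34169 in NC and of 54768 and 54851 after knockdown. Its log2 fold changes were 0.60 and 0.65, just past the limit, and those of its other probes were 0.66 and 0.66, and 0.54 and 0.63. FTL no longer passed with quantile normalization, at 0.52 in each knockdown, or with the percentile taken over detected probes alone, at 0.54 and 0.61. FTL has many near-identical pseudogenes, so its signal may include theirs. FTH1, the heavy chain, chosen after its values were seen, had log2 fold changes of -0.13 and 0.01.

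Of 9 measured detoxification genes, 2 passed, both aldo-keto reductases. AKR1B1, the other aldo-keto reductase measured in this list and chosen after its values were seen, did not pass. Its log2 fold changes were -0.31 and -0.22. AKR1B10, which reduces retinal and other aldehydes, had a signal of 82.9 and 97.9 in the knockdowns against 328 in NC, 4.20-fold and 3.43-fold lower. Its second probe gave 67.6 and 74.0 in the knockdowns and 244 in NC. AKR1C3, a close relative of AKR1C1, gave 259 and 266 on the knockdown arrays and 438 on the NC array, 1.79-fold and 1.69-fold lower. Like AKR1C1, AKR1C3 did not pass 1.5-fold in both knockdowns with the normexp background correction, where its log2 fold changes were -0.65 and -0.55. Limma gave AKR1B10 an adjusted p of 0.0939 and AKR1C3 one of 0.0960.

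**Figure D4:**
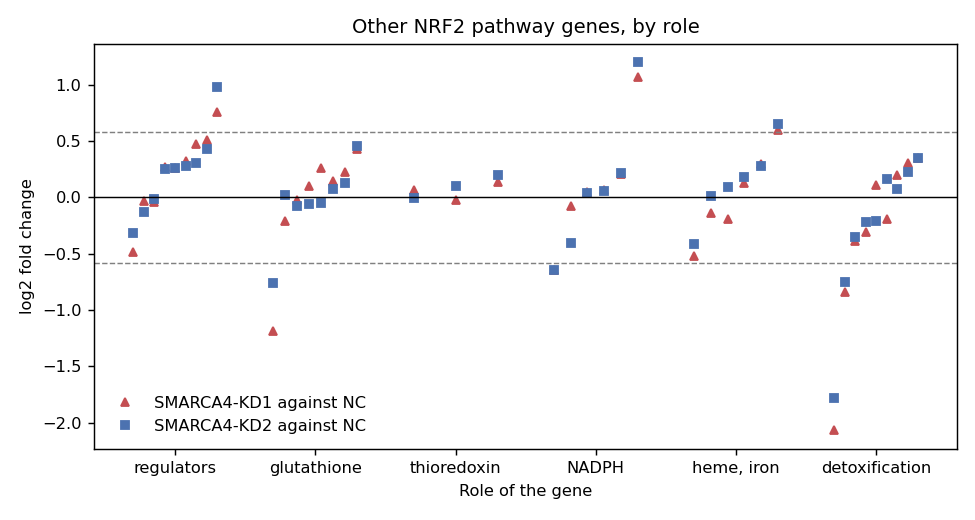
log2 fold change of the 41 other pathway genes in each knockdown against NC, grouped by role and ordered within a role by the mean of both. Triangles and squares are single comparisons of 2 arrays and dashed lines mark 1.5-fold. AKR1B10 is the lowest point and ME1 the highest.

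The genes whose pattern was nearest to that of HMOX1 were sought by the distance between the pairs of log2 fold changes, among the 19496 other genes with signal well above background on every array. They were CSNK1G1 (0.94 and 0.99), NR4A1 (0.93 and 1.00) and LOC101929014 (0.92 and 0.99). In all, 20 genes lay within 0.05 of HMOX1. The likeness rests on 2 differences that share the NC array.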

How the data were processed

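Total RNA of 3 HCT116 samples was hybridised to Agilent 1-colour arrays, per the labels. The authors extracted the deposited spot intensity with Agilent Feature Extraction 10.7.1.1 (background subtraction and detrending, no normalization between arrays). Other deposited columns, such as 0 or 1 flags for well above background, saturation and outliers and the log2 or score values of the extraction, were used as the authors gave them. Under 50% of probes passed the flag for well above background on each array.

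Control and outlier spots were removed, repeated spots were averaged on the log2 scale, and the 75th percentile of each array was subtracted. Values not well above background were raised to the lowest value well above background on their array. Of 58201 probes, 29334 passed that flag on 1 or more arrays and entered the analysis, where a gene took the value of its brightest probe (22620 genes). Levels of different probes were not compared.

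Fold changes of the single knockdowns against NC, read at 1.5-fold, had no test. limma 3.58.1 (R 4.3.3, intensity trend, Benjamini-Hochberg over all genes) compared both with NC, with 1 residual degree of freedom. Its spread comes only from the gap between the knockdown arrays, which share a slide, with information shared across genes. The p-values therefore do not cover the spread of NC or of slides. The methods' t-test, other normalizations, background corrections, filters, probe rules and the series-level table were run as alternatives. Among probes printed once, that table was equal within 0.1% apart from 1 probe. Probes with repeated spots were not compared in this way. Positions (hg19) and names are those of the array, and promoters are RefSeq GRCh38.p14. The scripts (Python 3.11.15, pandas 2.3.3) were tested on simulated data of 22620 genes, 200 of them changed, with 1 spread for all genes. The rule of 1.5-fold in both knockdowns found 197 of these, and 1217 unchanged genes passed it too. The number of arrays limits the precision. Genes named were the members with every probe, SMARCA4 and PRMT1, listed pathway genes past 1.5-fold in both knockdowns, and the 3 genes nearest in pattern to the member with the largest change. Other pathway genes named were BACH1, the small MAF genes, SLC7A11, FTH1, AKR1B1 and the thioredoxin genes. These fall outside that rule and were chosen after their values were seen. Genes without a value are named to account for the lists. The members and lists were chosen with earlier results of these data known.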

Additional observations from a re-analysis of the deposited data

How the results depend on the processing

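Settings of normalization, background correction, filter, floor, probe rule and table numbered 10. HMOX1 and SRXN1 passed 1.5-fold upward on both knockdown arrays in all 10, with log2 fold changes of 0.86 to 0.99 and 0.60 to 0.76. Filter, floor and probe rule could not change these genes, each read by 1 bright probe, and the table nearly repeated their values. Only quantile normalization, normexp and the percentile over detected probes could therefore move them. Filter and floor could not change AKR1C1. AKR1C1 was lower in 9, and with normexp 0 members were lower and its mean log2 fold change was -0.28. GCLC (0.48 to 0.63) passed in both knockdowns in none. NQO1 stayed between -0.00 and 0.05. The median of the members, 0.17, was 0.14 with quantile normalization, 0.18 with normexp, 0.12 with the percentile taken over detected probes alone, and 0.054 with no filter, where the median of all genes was -0.15 in each knockdown. At 2-fold, 0 members were lower and 0 higher, and of the other pathway genes 1 was lower and 1 higher.

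The limma count moved most. From 0 genes it went to 2651 with quantile normalization, 3601 with normexp, 5174 with only probes well above background on all arrays, 28567 with no filter, 3359 with no floor and 3623 with the series-level table. Without the 1 probe by which that table differs, an alternative chosen after seeing the data, it was 0. It was 6954 without adjustment, and 436 genes passed the methods' t-test at p under 0.01 and 1.5-fold. The cause of these shifts was not tested. No setting reversed a direction of HMOX1, SRXN1, GCLC, KEAP1, GCLM, TXNRD1 or AKR1C1.

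No paired analysis was possible because each condition had 1 array, and no array was left out of a comparison. A block for slide was not fitted, since NC alone lay on its slide. Dim signals limit AKR1C1 and leave NFE2L2 without a value.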
